A study of Mus musculus with 2 samples.

Results

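The secreted and metal-binding proteins of the pigment epithelium were followed through 9 genes, taken by symbol from the 32285 genes of the count tables. They are the secreted proteins *Clu*, *Ptgds*, *Cst3*, *Serpinf1* and *Apoe*, the copper-containing ferroxidase *Cp*, and the metallothioneins *Mt1*, *Mt2* and *Mt3*. Single cells of E17.5 mouse optic cups were counted in 1 pooled library of *Myrf* humWT/humWT mice and 1 pooled library of *Myrf* humdG/humdG mice. *Myrf* encodes a membrane-anchored transcription factor that cleaves itself and enters the nucleus. Both alleles were made by CRISPR editing of C57BL/6J mice and carry the human last coding exon in place of the mouse exon, so the control mice are humanized as well. The humdG allele also carries a frameshift variant at the C-terminus, is present in all tissues, and is lethal late in gestation when homozygous. The labels give 3 pooled eye cups per library with cornea, lens and optic nerve removed, whereas the methods of the study describe more eyes and a cornea left in place. Since each genotype had 1 library, there was no replicate and the genotypes were not tested against each other. Intervals are at the 95% level and cover counting error alone, and where a pair of values is given, *Myrf* humWT/humWT comes first and *Myrf* humdG/humdG after it.

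The retinal pigment epithelium (RPE) is the pigmented sheet between the photoreceptors and the choroid and is known to secrete proteins toward both sides. Clusterin and apolipoprotein E carry lipids outside cells, prostaglandin D2 synthase also binds retinoids, cystatin C blocks cysteine proteases, and pigment epithelium-derived factor (PEDF, the product of *Serpinf1*) restrains vessel growth. Ceruloplasmin, encoded by *Cp*, oxidizes iron that leaves the cell, and metallothioneins bind zinc and copper through their many cysteines. The eye has pigment cells of another origin too, the melanocytes of the choroid, which come from the neural crest and not from the optic cup.

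The *Myrf* humWT/humWT library held 129135207 unique molecular identifiers (UMIs, 1 for each captured transcript) in 17421 barcodes, and the *Myrf* humdG/humdG library held 114319529 in 19565 barcodes. After filtering, 16167 and 18173 cells remained, with medians of 3785 and 2625 UMIs. The study gives fewer cells for each library than the files hold or than these filters leave, so shares of cells here have another denominator than its own. The cells formed 14 named classes and 4 unnamed clusters, the latter with 34.7% and 57.8% of the cells. The libraries shared 102 barcode sequences, and 7 and 2 RPE-like cells carried one of them, and without these cells no level of the 9 genes in the class moved by more than 0.584%. *Myrf* stood at 277 and 192 CPM (UMIs of the gene per 1000000 UMIs of the class) in RPE-like cells. Both alleles carry the replaced exon. The study's results and methods differ on which untranslated end the transcript keeps, and where the *Myrf* reads fall was not examined. *Myrf* was not used to check the labels. The study lists *Myrf* among the genes lower in both of its mouse models by single-cell counts. At earlier stages it found *Myrf* unchanged by qPCR of whole eyes, and at consistent levels within the RPE by in situ hybridization. Red blood cell-like cells, 482 and 239 with medians of 4150 and 4247 UMIs, should lack most of the 9 genes and served as the reference for free RNA.

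The RPE-like class held 597 and 451 cells, with medians of 3727 and 2384 UMIs, and joined 2 clusters. The larger cluster had 523 and 435 cells and was led by *Ttr*, *Ptgds*, *Slc16a8*, *Krt18*, *Pmel* and *Rgr*. Its 10 leading genes included *Mt3* and *Clu* as well as *Ptgds*, although the 9 genes had been kept out of the genes used for clustering. The smaller cluster had 74 and 16 cells and was led by *Ankfn1*, *Otx2os1*, *Pde1c* and *Oca2*. Summed over 13 RPE markers, the class stood at 18161 and 17826 CPM. Melanocyte-like cells stood higher on the same markers, at 27265 and 28178 CPM, so this sum does not separate these classes. Of the genes used by the mature RPE, *Rpe65*, *Lrat* and *Best1* had 1 to 4 UMIs in RPE-like cells of either library. In contrast, *Rlbp1*, which binds retinal, stood there at 531 and 482 CPM and the opsin *Rgr* at 388 and 512 CPM. In melanocyte-like cells *Rlbp1* stood at 4.04 and 4.31 CPM and *Rgr* at 0.577 and 1.08 CPM. *Pax3*, which marks melanocytes and not RPE, stood at 4.26 CPM and 0 CPM in RPE-like cells against 230 CPM and 234 CPM in melanocyte-like cells. The separation was weaker over 7 melanocyte markers, which summed to 773 and 822 CPM in RPE-like cells against 2280 and 2706 CPM in melanocyte-like cells. *Sox10*, also raised in the melanocyte-like cluster, stood at 77.8 and 57.7 CPM in RPE-like cells.

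The name of the group held for part of it. *Clu*, *Cst3* and *Mt3* had their highest level of the 14 classes in RPE-like cells in both libraries, and *Ptgds* had it there in *Myrf* humWT/humWT, with melanocyte-like cells at a similar level. *Apoe* was highest in white blood cell-like cells, *Serpinf1* in mesenchyme-like cells, *Cp* in retinal progenitor-like cells, and *Mt1* and *Mt2* in melanocyte-like cells. The plot of levels by class shows these orders, with red blood cell-like cells as the reference for free RNA.

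**Figure D1:**
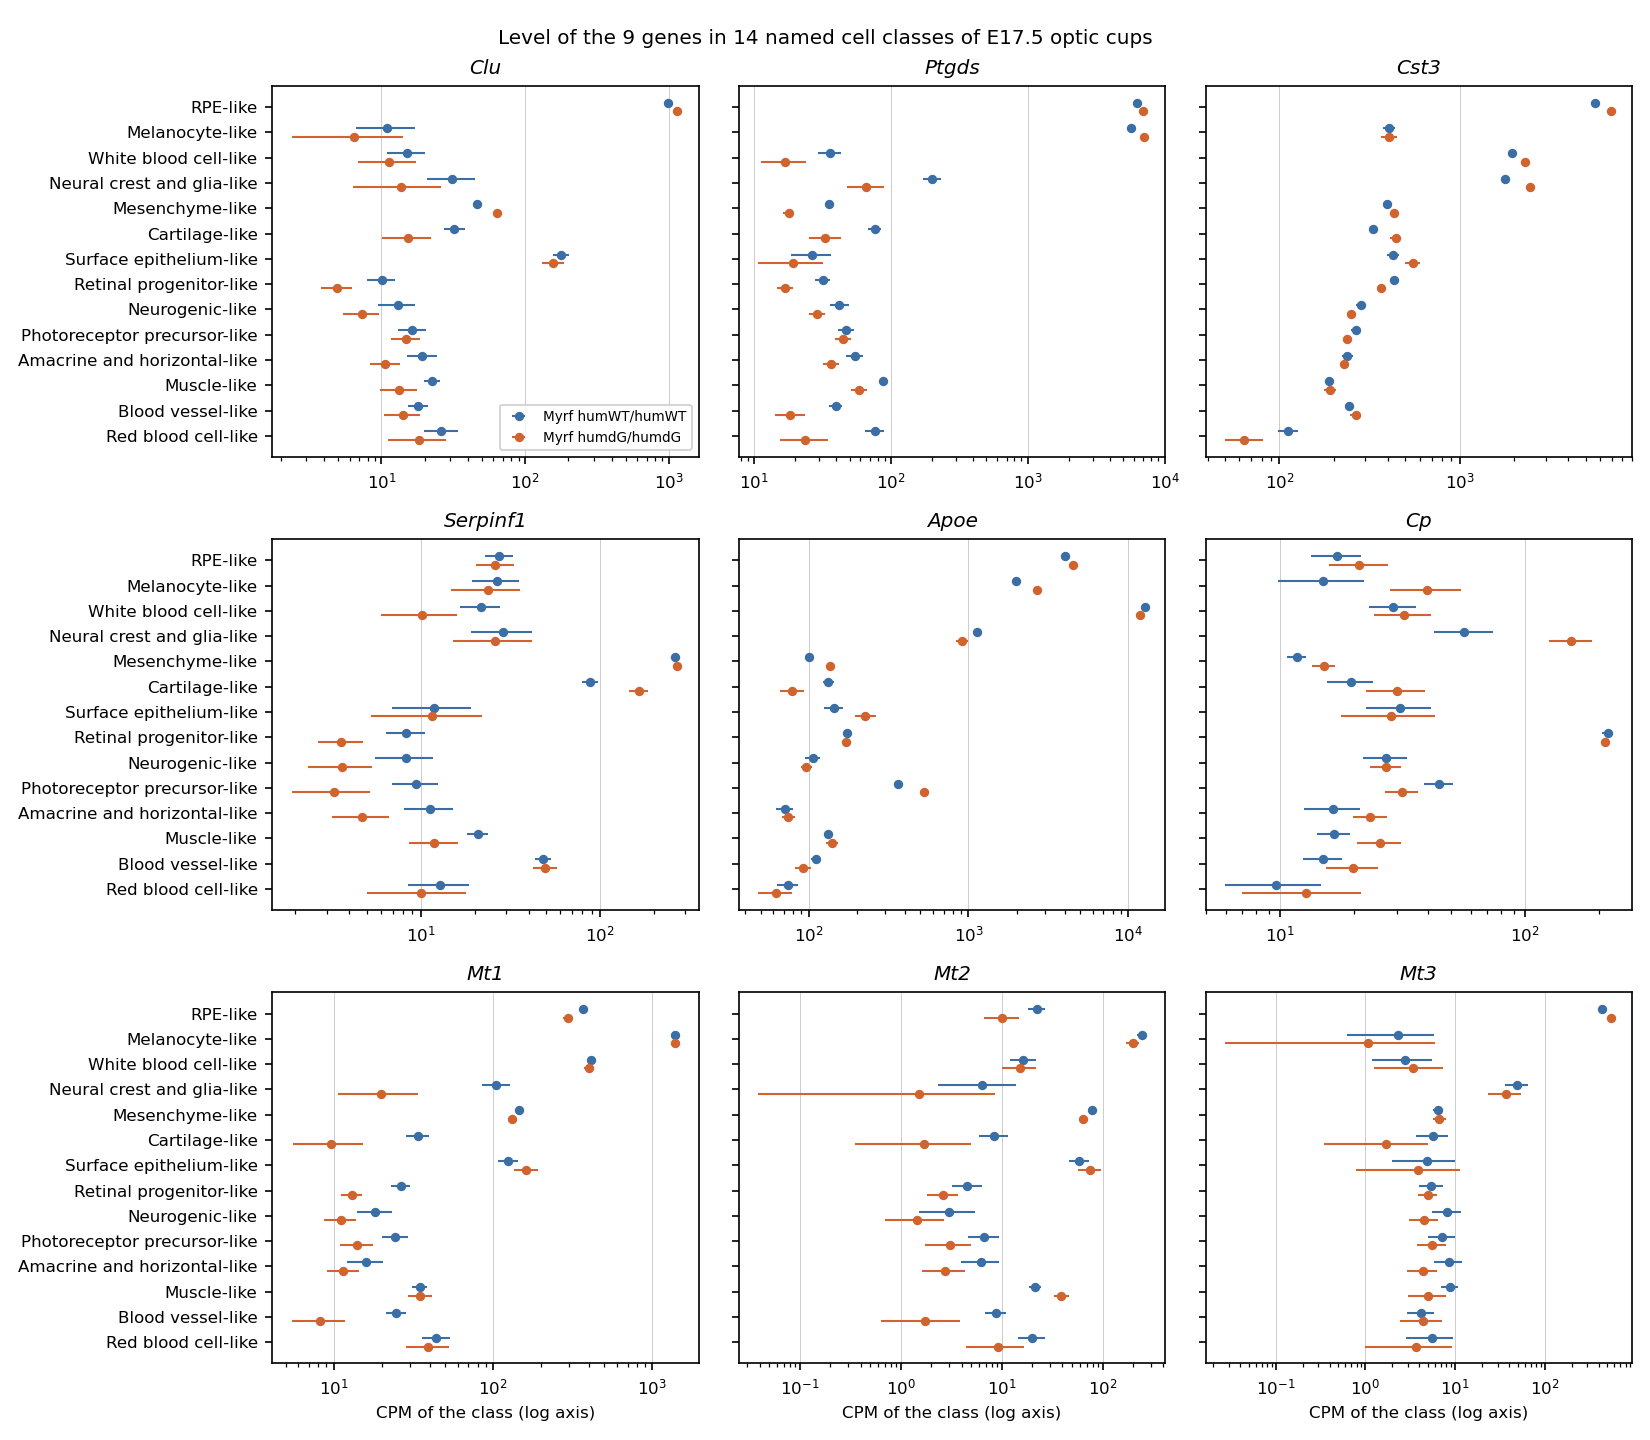
Level of each gene in 14 named classes, as CPM on a log axis, with *Myrf* humWT/humWT in blue and *Myrf* humdG/humdG in orange. Points are sums over the cells of a class, bars are exact Poisson 95% intervals, and open triangles mark the limit that a count of 0 allows; *Clu*, *Cst3* and *Mt3* reach their highest point in RPE-like cells, *Apoe* in white blood cell-like cells and *Mt1* in melanocyte-like cells.

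Among the secreted proteins, *Clu* (chr14:65968483-65981547, GRCm38), whose product clusterin is an extracellular chaperone, was found at its highest level in RPE-like cells. It stood there at 990 CPM (4417 UMIs) and 1136 CPM (2912 UMIs). The next class was the surface epithelium-like cells at 177 and 157 CPM, followed by mesenchyme-like cells at 45.9 and 63.8 CPM. Outside these 3 classes, the other 10 did not stand above red blood cell-like cells (26.1 and 18.3 CPM) in either library. Retinal progenitor-like cells lay below them, at 10.0 and 4.88 CPM, so a level not above this reference does not show absence. RPE-like cells were 37.9-fold (29.2 to 50.2) and 62.1-fold (40.1 to 102) above that reference.

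*Ptgds* (chr2:25466709-25470046), which makes prostaglandin D2, belonged to both kinds of pigment cell. Its level was 6272 CPM in RPE-like and 5644 CPM in melanocyte-like cells of *Myrf* humWT/humWT, a 1.11-fold difference (1.09 to 1.14). In *Myrf* humdG/humdG the order turned, with 6970 CPM in RPE-like and 7121 CPM in melanocyte-like cells, but these did not differ beyond counting error (1.02-fold, 0.993 to 1.05). The next class, neural crest and glia-like cells, held 201 CPM and 65.8 CPM. An unnamed cluster led by *Nrxn3*, *Ntng2* and *Dscam* had 408 and 62.4 CPM of *Ptgds*. In this cluster 10 cells held 45.9% and 59.0% of these UMIs, and the median over cells of 5000 UMIs or more was 71.9 and 0 CPM. *Ttr* stood there at 207 and 9.87 CPM, and the part of pigment cell RNA in this *Ptgds* level was not tested.

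*Cst3* (chr2:148871722-148875692), which encodes cystatin C, was found far above free RNA in RPE-like cells and at lower levels everywhere else. RPE-like cells held 5635 CPM and 6967 CPM, white blood cell-like cells 1949 and 2300 CPM, and neural crest and glia-like cells 1794 and 2463 CPM. All 13 classes other than red blood cell-like cells stood above red blood cell-like cells (112 and 64.0 CPM) in both libraries. *Apoe* (chr7:19696109-19699188) was highest in white blood cell-like and not in RPE-like cells, with 12773 and 11918 CPM in the former and 3999 and 4539 CPM in the latter. Melanocyte-like cells followed at 1976 and 2674 CPM, then neural crest and glia-like cells at 1135 and 911 CPM and photoreceptor precursor-like cells at 364 and 527 CPM. Neighbours in this order of *Apoe* were apart beyond their intervals in each library.

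*Serpinf1* (chr11:75409769-75422701) did not follow its protein's name at this age. It stood at 261 and 270 CPM in mesenchyme-like cells, at 88.5 and 165 CPM in cartilage-like cells, at 48.2 and 49.4 CPM in blood vessel-like cells, and at only 27.4 and 26.1 CPM in RPE-like cells. The RPE-like level was 2.13-fold (1.41 to 3.34) and 2.60-fold (1.36 to 5.45) above that of red blood cell-like cells, and did not differ beyond counting error from that of neural crest and glia-like or melanocyte-like cells. Within the mesenchyme, the cluster led by *Spp1*, *Rgs5* and *Mgp* held 306 and 316 CPM, and the cluster led by *Acta2*, *Col12a1* and *Postn* held 103 and 129 CPM.

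Of the metal proteins, *Cp* (chr3:19957054-20009145) was highest in cells of the neural retina. Retinal progenitor-like cells held 217 and 212 CPM, and an unnamed cluster led by *Tafa1*, *Cntn6* and *Cp* itself held 270 and 274 CPM. RPE-like cells held 17.0 CPM (76 UMIs) and 21.1 CPM (54 UMIs) against 9.62 and 12.8 CPM in red blood cell-like cells, and the 1.65-fold difference in *Myrf* humdG/humdG had an interval of 0.901 to 3.21. In *Myrf* humdG/humdG the RPE-like level of *Cp* was therefore not distinguishable from that reference.

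The 3 metallothionein genes lie together on chromosome 8, at chr8:94152607-94154146 (*Mt3*), chr8:94172664-94173568 (*Mt2*) and chr8:94179082-94180327 (*Mt1*), and differed in the cells that used them. *Mt3*, known from brain and named a growth inhibitor there, stood at 441 and 544 CPM in RPE-like cells, 80.2-fold (45.8 to 155) and 149-fold (58.0 to 547) above red blood cell-like cells. Of the other named classes, only neural crest and glia-like cells, with 49.1 and 36.7 CPM, stood above that reference in both libraries, and so did an unnamed cluster led by *Sncg*, with 12.1 and 13.6 CPM. *Mt1* stood at 1390 and 1396 CPM in melanocyte-like cells, at 414 and 399 CPM in white blood cell-like cells and at 369 and 296 CPM in RPE-like cells. *Mt2* stood at 244 and 199 CPM in melanocyte-like cells, at 78.0 and 64.0 CPM in mesenchyme-like cells and at 58.8 and 74.5 CPM in surface epithelium-like cells. In RPE-like cells it stood at 22.2 and 10.1 CPM. The RPE-like level of *Mt2* was 1.10-fold (0.765 to 1.61) and 1.11-fold (0.517 to 2.58) that of red blood cell-like cells and did not differ from it beyond counting error. Several classes lay below that reference, with photoreceptor precursor-like cells at 6.74 and 3.07 CPM of *Mt2* and retinal progenitor-like cells at 4.57 and 2.63 CPM, and the part of free RNA in the RPE-like level was not tested. Within the mesenchyme, *Mt1* and *Mt2* sat mainly in the cluster led by *Pi16*, *Tnxb* and *Clec3b*, with 275 and 279 CPM of *Mt1* and 151 and 142 CPM of *Mt2*. The cluster led by *Spp1* held 28.6 and 21.8 CPM of *Mt1* and 11.9 and 5.74 CPM of *Mt2*.

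Metallothionein genes are known to be switched on by zinc through metal response elements, short motifs bound by the factor MTF1. The promoters of the 3 genes are shown because *Mt1* and *Mt2* shared their leading class and *Mt3* did not. Whether the motifs bear on that difference was not tested. Sequences are from RefSeq (GRCm38.p6, plus strand, 250 bases before to 50 bases after the start). The *Mt2* window ends at 94172667, by the gene start of 94172664 given above, so its motifs lie before that start. Capitals mark the core letters TGCACNC or TGCGCNC on either strand.
Mt1 (chr8:94178839-94179138): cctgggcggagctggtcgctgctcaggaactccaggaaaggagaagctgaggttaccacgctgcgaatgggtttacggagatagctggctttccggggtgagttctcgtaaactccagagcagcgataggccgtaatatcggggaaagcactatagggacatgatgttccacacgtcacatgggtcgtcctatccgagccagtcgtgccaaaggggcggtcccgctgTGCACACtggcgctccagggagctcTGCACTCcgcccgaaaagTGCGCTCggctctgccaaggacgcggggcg
Mt2 (chr8:94172368-94172667): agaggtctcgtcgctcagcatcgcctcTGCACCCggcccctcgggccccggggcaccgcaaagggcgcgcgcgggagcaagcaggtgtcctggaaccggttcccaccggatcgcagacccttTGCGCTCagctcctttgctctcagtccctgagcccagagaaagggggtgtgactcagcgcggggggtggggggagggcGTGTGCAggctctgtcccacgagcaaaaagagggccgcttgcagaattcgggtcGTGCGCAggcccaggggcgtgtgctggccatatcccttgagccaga
Mt3 (chr8:94152357-94152656): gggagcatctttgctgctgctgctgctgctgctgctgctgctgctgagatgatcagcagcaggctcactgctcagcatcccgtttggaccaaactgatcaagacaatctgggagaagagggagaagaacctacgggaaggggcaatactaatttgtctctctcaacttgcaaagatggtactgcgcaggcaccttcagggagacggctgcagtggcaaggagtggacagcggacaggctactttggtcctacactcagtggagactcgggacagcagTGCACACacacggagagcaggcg
*Mt1* had 3 such cores, *Mt2* had 4, 2 of them on the other strand, and *Mt3* had 1. Of 27025 promoters of the same length, 25.57% held at least 1 core, 1.998% at least 3 and 0.5032% at least 4. No core was found in the promoters of *Ptgds*, *Cst3*, *Serpinf1*, *Apoe* and *Cp*, and 8 of the 9 genes had a promoter in the table. A match of letters is a description and not a binding site.

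The share of each gene's UMIs that a class held showed where its transcripts were counted, free RNA included. RPE-like cells were 3.69% and 2.48% of the cells. They held 68.6% and 66.7% of the *Mt3* UMIs, 61.1% and 62.4% of *Ptgds*, 53.6% and 51.8% of *Clu*, 36.6% and 32.4% of *Cst3* and 24.1% and 21.8% of *Apoe*. White blood cell-like cells, 1.53% and 0.880% of the cells, held 49.5% and 39.8% of *Apoe*. Melanocyte-like cells, 0.625% and 0.341% of the cells, held 21.4% and 23.1% of *Ptgds*. In contrast, RPE-like cells held 12% and 10.4% of *Mt1* and at most 2.17% of *Mt2*, *Cp* or *Serpinf1*. Mesenchyme-like cells held 83.2% and 84.1% of *Serpinf1*, 68.2% and 64.4% of *Mt2* and 42.6% and 39.5% of *Mt1*, and the unnamed clusters held 46.5% and 57.7% of *Cp*. Over all cells, *Cp* had 50.3 and 91.2 CPM. The ratio was 0.976 (0.919 to 1.04) in retinal progenitor-like cells, and the cluster led by *Tafa1* held 270 and 274 CPM. In the unnamed cluster led by *Sncg* the ratio was 1.72 (1.49 to 2.00), and in that led by *Nrxn3* it was 2.79 (2.46 to 3.16). The median gene had log2 ratios of 0.29 and 0.25 in these clusters, and *Ttr* stood at 207 and 9.87 CPM in the latter. Whether these clusters hold the same cells in both libraries was not tested. The mix of cells and the level within a cluster can therefore not be told apart.

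**Figure D2:**
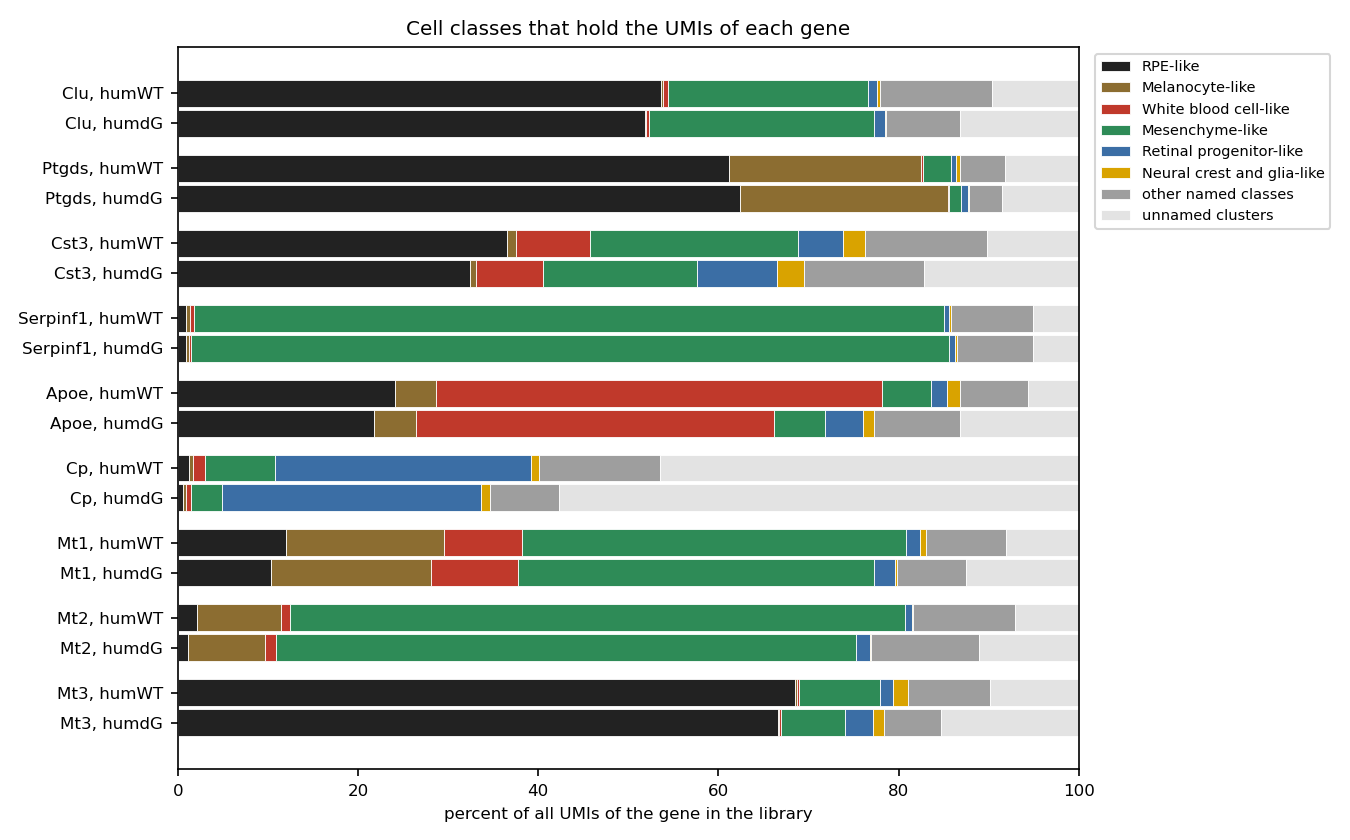
Percent of all UMIs of each gene that cell classes held, with 1 bar per gene and library. RPE-like cells hold 66.7% or more of *Mt3* and 61.1% or more of *Ptgds* in both libraries, white blood cell-like cells hold the largest part of *Apoe*, and mesenchyme-like cells hold 83.2% and 84.1% of *Serpinf1*.

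Cell by cell, the RPE-like class was uneven. After each cell was thinned to 1000 UMIs, *Ptgds* was found in 60.5% (56.4 to 64.4) and 69.8% (65.3 to 74.0) of RPE-like cells, and in 8.60% and 1.69% of red blood cell-like cells. *Cst3* was found in 57.1% and 68.2% of RPE-like cells, *Apoe* in 49.1% and 64.2%, and *Clu* in 31.7% and 40.0%, against 1.68% to 12.8% of red blood cell-like cells. *Mt3* was found in 18.6% and 19.3% of RPE-like cells and in 2 of 477 and 0 of 237 red blood cell-like cells, and *Mt1* in 16.1% and 12.2% against 4.19% and 4.22%. Shares of *Serpinf1*, *Cp* and *Mt2* lay between 0.889% and 2.67% in RPE-like cells and between 0% and 2.52% in red blood cell-like cells, and so few cells do not tell the classes apart. By the summed level above, *Serpinf1* in both libraries and *Cp* in *Myrf* humWT/humWT stood above red blood cell-like cells. Without thinning, the shares in RPE-like cells were 81.9% and 83.8% for *Ptgds*, 79.9% and 83.6% for *Cst3*, 75.9% and 80.5% for *Apoe*, 56.3% and 60.5% for *Clu*, 39.7% and 29.7% for *Mt1*, 39.4% and 35.3% for *Mt3*, 11.9% and 8.87% for *Serpinf1*, 7.37% and 8.43% for *Cp*, and 7.71% and 5.10% for *Mt2*.

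The spread over cells followed the 2 clusters. When cells of the class were limited to those of 5000 UMIs or more, the larger cluster (161 and 97 cells) had a median *Ptgds* level of 6271 and 6650 CPM, and the smaller (54 and 7 cells) 217 and 676 CPM. *Cst3* had medians of 4479 and 6701 CPM in the larger and 124 and 388 CPM in the smaller cluster. *Apoe* had 2996 and 4529 CPM against 147 and 383 CPM, and *Clu* 948 and 1048 CPM against 0 and 194 CPM. *Mt3* and *Mt1* had medians of 455 and 465 CPM and of 329 and 205 CPM in the larger cluster, and 0 CPM in the smaller. The smaller cluster thus held cells with markers of RPE and low levels of the 6 genes. It made up a larger part of the *Myrf* humWT/humWT class (74 of 597 cells) than of the *Myrf* humdG/humdG class (16 of 451). Its 10 leading genes held no marker of the RPE list, and RPE markers summed there to 6664 and 9039 CPM. Markers of red blood cells summed to 15399 and 4866 CPM in it, against 4529 and 7621 CPM in the larger cluster, and those of muscle to 2159 and 959 CPM. Their part in its low levels was not tested.

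**Figure D3:**
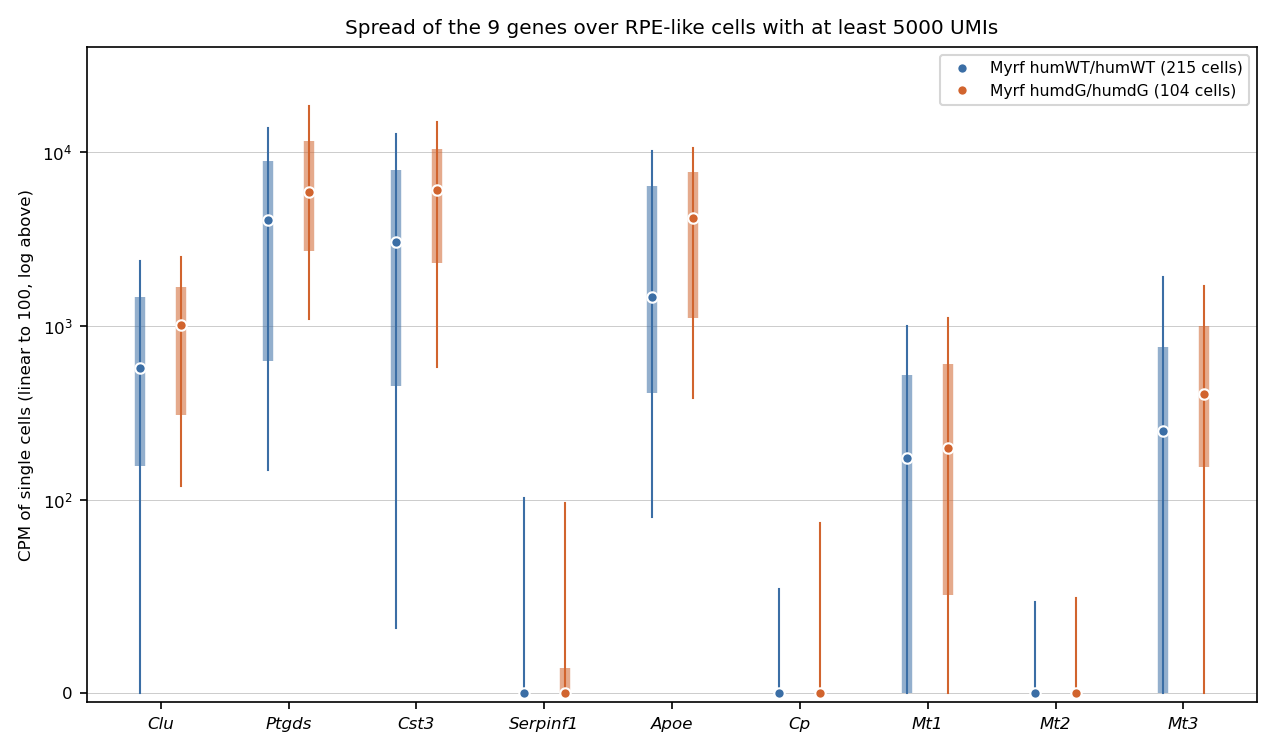
CPM of the 9 genes in single RPE-like cells with at least 5000 UMIs, 215 from *Myrf* humWT/humWT and 104 from *Myrf* humdG/humdG, on an axis that is linear to 100 and logarithmic above. Points are medians, thick bars run from the 25th to the 75th percentile and thin bars from the 10th to the 90th. The medians of *Clu*, *Ptgds*, *Cst3*, *Apoe*, *Mt1* and *Mt3* are higher in *Myrf* humdG/humdG, and those of *Serpinf1*, *Cp* and *Mt2* are 0. The smaller RPE-like cluster gives 54 of the 215 and 7 of the 104 cells.

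The comparison of genotypes asked whether the C-terminal variant went with another output of these proteins from the RPE. The ratio in RPE-like cells, with *Myrf* humdG/humdG as the numerator, was 1.15 (1.09 to 1.20) for *Clu*, 1.11 (1.09 to 1.13) for *Ptgds*, 1.24 (1.21 to 1.26) for *Cst3*, 1.14 (1.11 to 1.16) for *Apoe* and 1.24 (1.15 to 1.32) for *Mt3*. It was 0.802 (0.735 to 0.874) for *Mt1* and 0.457 (0.285 to 0.710) for *Mt2*. For *Serpinf1* (0.955, 0.698 to 1.30) and *Cp* (1.24, 0.856 to 1.78) the interval held 1. Of the 6 genes with a level well above free RNA in this class, 5 were slightly higher in *Myrf* humdG/humdG and *Mt1* was lower. *Mt1* was lower in 11 of the 14 classes, this one included. Over single RPE-like cells of 5000 UMIs or more, however, the median *Mt1* level was 172 and 197 CPM, and in the larger cluster 329 and 205 CPM. Among all 12723 genes with at least 20 UMIs in the class, 45.4% were higher and 54.6% lower.

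None of the 9 genes was at least 1.5-fold higher in RPE-like cells of *Myrf* humdG/humdG, where 7.66% of 12723 genes with at least 20 UMIs were, and 1 gene, *Mt2*, was at least 1.5-fold lower, where 14.4% of all genes were. The median log2 ratio of the 9 genes was 0.18, and that of all 12723 genes was -0.05. The ratio of *Mt2* in red blood cell-like cells was 0.454 (0.204 to 0.915), close to the 0.457 in RPE-like cells. Markers of mesenchyme, the class with most of the *Mt2* UMIs, summed to 3289 and 1414 CPM in RPE-like cells and to 3284 and 1089 CPM in red blood cell-like cells. All 16 of these markers were above 0 in RPE-like cells of both libraries, and their part in the *Mt2* ratio was not tested.

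These small ratios depended on which RPE-like cells were counted. In the larger cluster alone they were 1.06 for *Clu*, 1.02 for *Ptgds*, 1.14 for *Cst3*, 1.04 for *Apoe*, 1.13 for *Mt3* and 0.736 for *Mt1*. In *Myrf* humdG/humdG, 1 cell with 94059 UMIs in all accounted for 2443 of the 17860 *Cst3* UMIs and 1471 of the 17867 *Ptgds* UMIs, and without it *Cst3* stood at 6243 CPM in *Myrf* humdG/humdG. In *Myrf* humWT/humWT, 1 cell held 27 of the 99 *Mt2* UMIs. When the cell with the most UMIs of the gene was left out of each library, the log2 ratio was 0.17 in place of 0.31 for *Cst3* and -0.84 in place of -1.13 for *Mt2*.

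**Figure D4:**
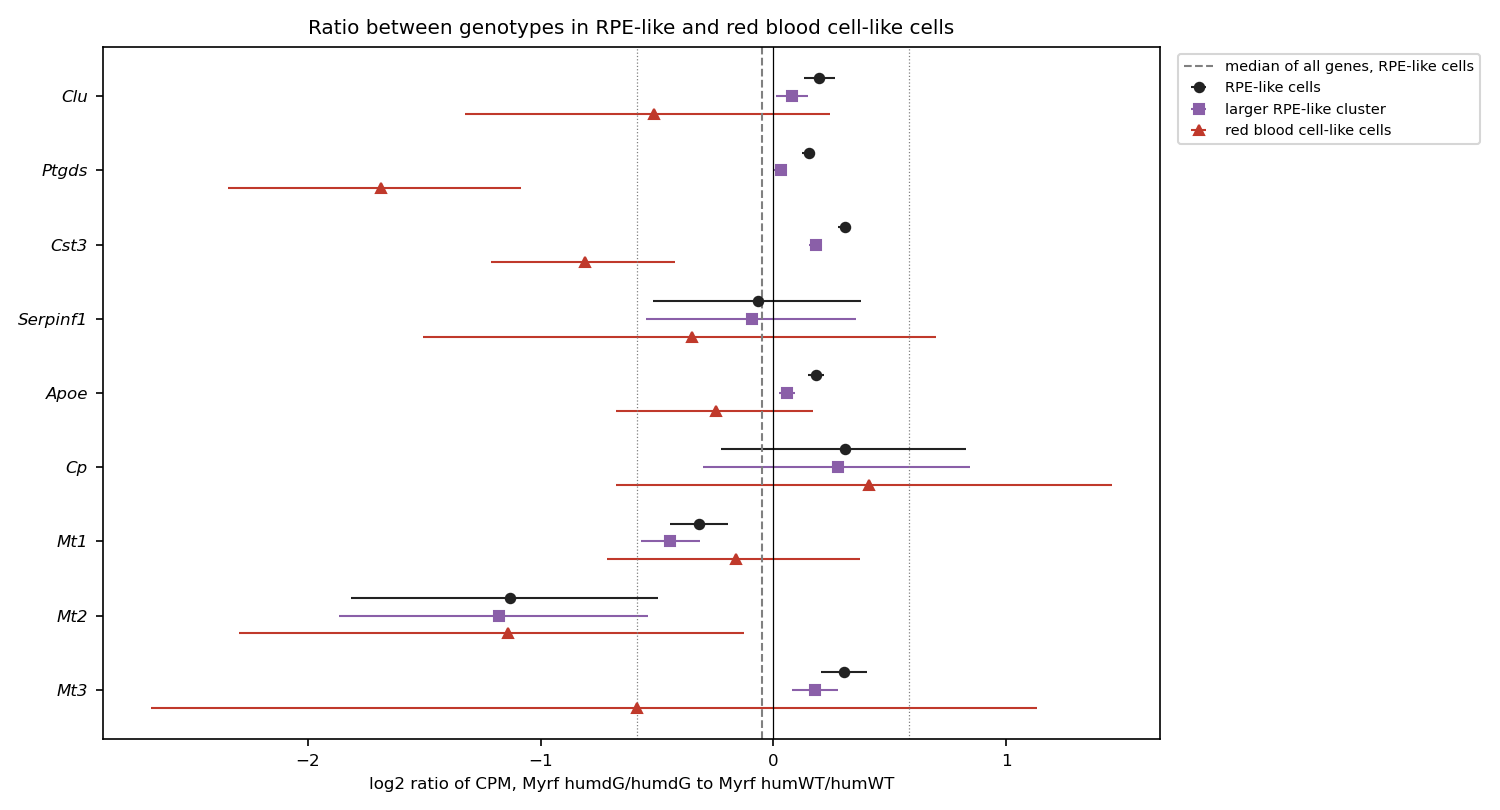
Log2 ratio of CPM between genotypes for the 9 genes in RPE-like cells (black), in the larger RPE-like cluster (purple) and in red blood cell-like cells (red), with exact conditional binomial 95% intervals. The dashed line is the median of all genes in RPE-like cells and dotted lines mark 1.5-fold; in RPE-like cells *Mt2* lies past 1.5-fold, beside its value in red blood cell-like cells, and the other 8 genes lie inside.

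The genotype ratios of single genes were not the same from class to class, and many classes did not stand above the red blood cell-like reference. *Ptgds* was lower in *Myrf* humdG/humdG in 12 of 14 classes, with intervals below 1 in 10 of them, and higher only in RPE-like and melanocyte-like cells (1.26, 1.22 to 1.30). Its level in red blood cell-like cells was 76.5 and 23.8 CPM, a ratio of 0.311 (0.197 to 0.472). *Clu* was likewise higher only in RPE-like and mesenchyme-like cells (1.39, 1.30 to 1.49). These are 2 of the 3 classes where it stood above red blood cell-like cells. *Cst3* was higher in 8 classes and lower in 6, with neural crest and glia-like cells at 1.37 (1.28 to 1.47) and retinal progenitor-like cells at 0.849 (0.813 to 0.887). *Apoe* was higher in 7 and lower in 7. In white blood cell-like cells, its leading class, the ratio was 0.933 (0.917 to 0.949), and in photoreceptor precursor-like cells it was 1.45 (1.37 to 1.54).

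In the leading classes of *Serpinf1* and *Mt1* the ratios were close to 1, and in that of *Mt2* the interval lay below 1. *Serpinf1* had 1.04 (1.00 to 1.07) in mesenchyme-like cells, *Mt1* 1.00 (0.938 to 1.07) and *Mt2* 0.816 (0.683 to 0.972) in melanocyte-like cells. *Serpinf1* had 1.86 (1.59 to 2.17) in cartilage-like cells, a class of 1252 and 152 cells in which the median gene had a log2 ratio of 0.45. *Cp* had 2.73 (1.94 to 3.89) in neural crest and glia-like cells, which were 51 and 41 cells. In melanocyte-like cells it had 2.66 (1.57 to 4.57) on 26 and 37 UMIs. There the *Myrf* humWT/humWT level of *Cp* was 1.56-fold the free RNA reference, with an interval of 0.844 to 2.91 that held 1. Markers of retinal progenitors, whose class led for *Cp*, summed to 271 and 950 CPM in the melanocyte-like class. In the reference class these markers summed to 477 and 918 CPM. Their part in the *Cp* ratios was not tested. *Mt1* was lower in *Myrf* humdG/humdG in 11 of 14 classes and higher in 3, with intervals below 1 in 8 and above 1 in 1. It had 0.190 (0.0979 to 0.341) in neural crest and glia-like cells on 98 and 13 UMIs. *Mt2* was lower in 11 of 13 classes with at least 20 UMIs, with intervals below 1 in 9 of them. *Mt2* was higher in muscle-like cells, with 21.6 and 39.1 CPM and a ratio of 1.81 (1.46 to 2.25). Its muscle-like level in *Myrf* humWT/humWT did not stand above red blood cell-like cells (1.07-fold, 0.771 to 1.52). The muscle-like class joined a cluster of 1714 and 620 cells and one of 256 and 122 cells, and the part of this mix in the ratio was not tested.

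**Figure D5:**
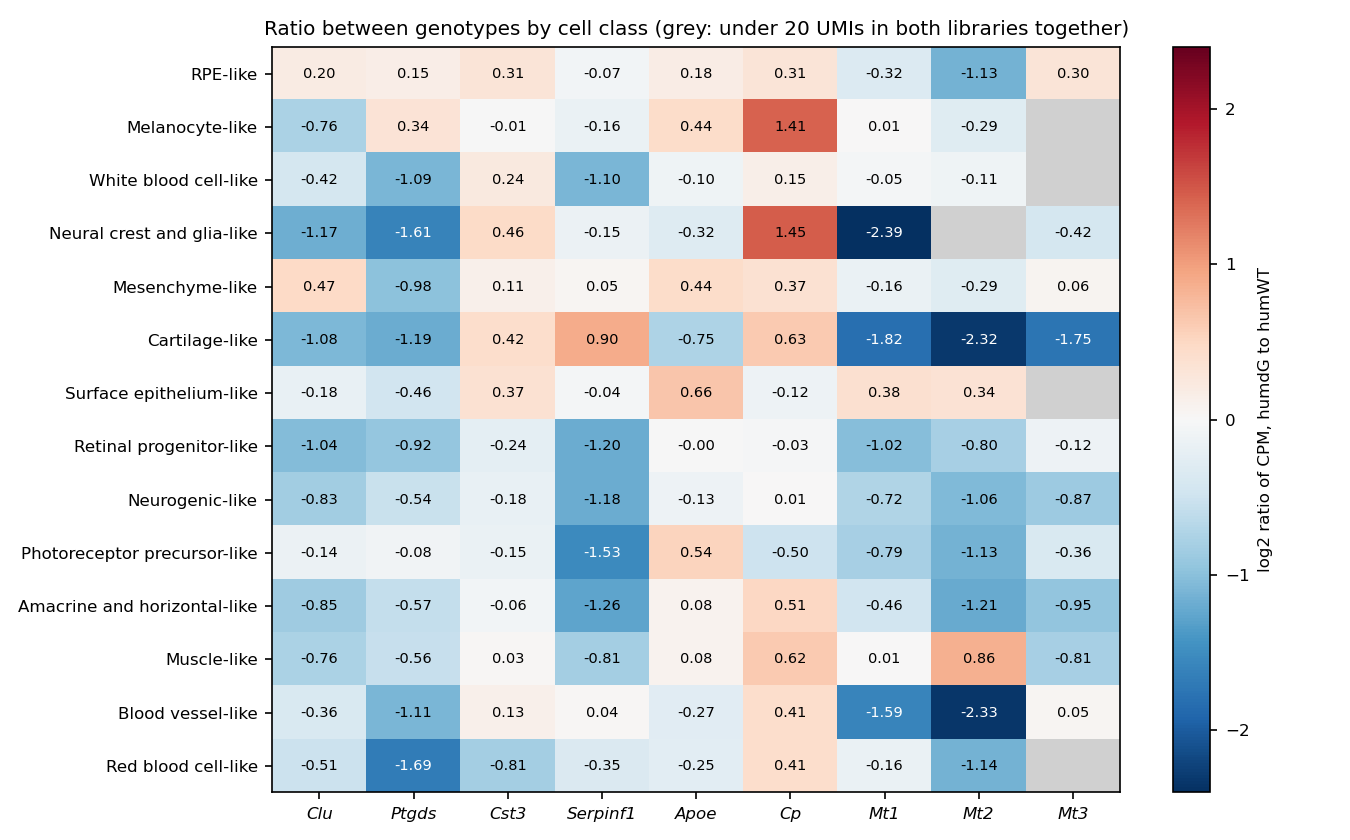
Log2 ratio of CPM, *Myrf* humdG/humdG to *Myrf* humWT/humWT, for each gene (columns) in each named class (rows), with red for higher and blue for lower in *Myrf* humdG/humdG and grey for fewer than 20 UMIs. *Ptgds* is red only in RPE-like and melanocyte-like cells, *Cst3* and *Apoe* are mixed, and *Cp* is red in 11 of 14 classes. Of the *Cp* ratios, 6 have an interval above 1 and 1 has an interval below 1. The part of retinal progenitor transcripts in these ratios was not tested.

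Other genes of the same pathways were described in RPE-like cells beside the backgrounds of 7.66% higher and 14.4% lower. Of 8 measured genes of prostaglandin metabolism, 3 were at least 1.5-fold lower in *Myrf* humdG/humdG, with a median log2 ratio of -0.31. They were *Ptges2* (-0.88) and *Ptges* (-0.62), which make prostaglandin E2, and the cyclooxygenase *Ptgs1* (-0.59), which makes the precursor of all prostaglandins. *Ptges3* stood at 0.11 and *Hpgds*, the other prostaglandin D2 synthase, at 0.05 on 32 and 19 UMIs. Of 9 cystatins and cysteine cathepsins, the targets of cystatin C, none was at least 1.5-fold higher and 1 was lower (median 0.11). *Ctsz* had the highest log2 ratio (0.57) and *Ctsk*, a collagen-degrading protease highest in mesenchyme-like cells, the lowest (-1.27). Of the lysosomal proteases, *Ctsb* stood at -0.05, *Ctsl* at 0.19 and the aspartic protease *Ctsd* at -0.10. Of 8 serpins and PEDF receptors, *Serpini1* (1.75) and *Serpinb9* (1.08) were higher and *Serping1* (-1.16) was lower, on 15 and 29, 23 and 28, and 39 and 10 UMIs (median 0.02). *Pnpla2*, which encodes a PEDF receptor, stood at 8.52 and 8.19 CPM, and the extremes with at least 100 UMIs were *Rpsa* (0.23), the laminin receptor, and the protease inhibitor *Serpine2* (-0.53).

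Of 11 lipoprotein genes and partners of clusterin and apolipoprotein E, none was higher and 2 were lower, with a median log2 ratio of -0.03. *Apod* was counted 25 and 0 times and was 4.79-fold lower if 3 counts are taken for the 0, a value without the counting error of the 25. The other was *Lrp2* (-0.65), the endocytic receptor megalin, whose level was highest in RPE-like cells at 98.4 and 62.8 CPM, and among genes with at least 100 UMIs the highest ratio was that of its chaperone *Lrpap1* (0.35). Of 14 iron and copper genes, the transferrin receptor *Tfrc* (1.02) was higher and none was lower (median 0.07), and 6 had their highest level in RPE-like cells. Among those with at least 100 UMIs the extremes were *Ccs* (0.25) and *Slc11a2* (-0.14). The ferritin chains *Fth1* and *Ftl1* stood at 0.18 and 0.15, and the iron exporter *Slc40a1* at -0.27 on 21 and 10 UMIs. The multicopper ferroxidase *Heph*, a homolog of *Cp*, was highest in RPE-like cells at 35.2 and 39.4 CPM. Of 12 zinc genes, none was higher and *Slc30a10* (-0.88) was past 1.5-fold lower on 16 and 5 UMIs, with an interval of -2.68 to 0.64 that held 0 (median -0.10). The metal sensor *Mtf1* stood at 22.2 and 20.7 CPM, the zinc exporter *Slc30a1* at -0.34, and the importers *Slc39a10* and *Slc39a14* at 0.32 and -0.45. Of 11 measured genes listed as other secreted proteins of the pigment epithelium, 2 were higher and 1 lower (median -0.01). Only 6 of the 12 listed had their highest level in RPE-like cells. *Ttr*, the carrier of thyroid hormone and retinol-binding protein, stood at 3796 and 2781 CPM (-0.45), *Spon1* at -0.64 and *Enpp2* at 0.60. *Rbp3*, highest in photoreceptor precursor-like cells, stood at 6.05 and 13.3 CPM (1.13) on 27 and 34 UMIs. Genes of these lists that passed 1.5-fold and were not the extremes of a list were named after their values had been seen. *Ctsk* and *Serping1* were highest in mesenchyme-like cells and *Apod* in cartilage-like cells. Summed markers of both classes were lower in RPE-like cells of *Myrf* humdG/humdG, those of cartilage at 585 and 289 CPM. *Serpini1* and *Tfrc* were highest in amacrine and horizontal-like cells, whose markers summed to 66.8 and 109 CPM in RPE-like cells. *Serpinb9* was highest in blood vessel-like cells, whose markers went the other way from its ratio, at 308 and 179 CPM. The part of these markers in the ratios was not tested.

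The genes whose levels ran most like those of the 9 were sought over 28 points, the 14 classes of both libraries, among 4579 genes. The classes of a library share its depth and free RNA, so the correlations are descriptions. *Mt3* ran with *A2m* (r = 0.98) and *Rlbp1* (0.98), *Clu* with *Cpxm2* (0.97), *Clic6* (0.95) and *Cdh3* (0.94), and *Cst3* with *Soat1* (0.92). *Ptgds* ran with the pigment cell genes *Gpnmb* (0.99), *Mlana* (0.98) and *Pmel* (0.98). *Apoe* ran with *Ctsc* (0.91), *Serpinf1* with the collagen hydroxylase *P3h1* (0.95), *Cp* with *Slc35f1* (0.87) and *Cntn6* (0.86), *Mt1* with *Renbp* (0.91) and *Mt2* with *Ahnak2* (0.89). Within the 9 genes the closest pairs were *Clu* and *Mt3* (0.80), *Cst3* and *Apoe* (0.79), and *Mt1* and *Mt2* (0.79), while *Mt1* and *Mt3* reached 0.24 and *Mt2* and *Mt3* -0.13.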

How the data were processed

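Single-cell RNA was counted in 1 pooled library per genotype of E17.5 optic cups. Reads were processed with Cell Ranger 7.1.0 by the authors, who deposited UMI counts that are whole numbers and not normalized, for barcodes already called as cells. The submitters' processing notes name mm10 and Seurat 4.1.1, and whether intron reads were counted is not given in the sources used here. Libraries held 129135207 and 114319529 UMIs, which sets the counting error.

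Cells needed over 500 genes and a mitochondrial share below 15%. Scrublet in scanpy 1.11.5 marked 1 and 0 cells at its own threshold, which is too few to rely on, and the top 5% of cells by score were removed instead. Libraries were integrated and clustered with Seurat 5.3.0 (R 4.3.3) on 2000 variable genes, 20 dimensions and a resolution of 0.5, with the 9 genes left out of the variable genes. A cluster was named from at least 3 markers of a cell type raised at least 2 times and found in at least 10% of its cells. At least 1 of these markers also had to be among its 20 leading genes. The unnamed clusters led by *Tafa1* and by *Nrxn3* had up to 8 and 6 raised markers of a type, but none of them among those 20 genes. Without doublet removal, and when libraries were merged without integration, the cluster led by *Tafa1* was named retinal progenitor. The melanocyte-like cluster had as many RPE markers as markers of its own, 3 each, among its 10 leading genes.

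UMIs were summed per class and scaled to CPM. Sums have exact Poisson, ratios exact conditional binomial and shares exact Clopper-Pearson intervals (scipy 1.17.1). The Poisson and ratio intervals and the thinning were tested on simulated data. Those data lack the unevenness between cells seen here, so they do not test the intervals against it. The limit for a count of 0 was taken as 3 counts. The background was all genes whose UMIs in RPE-like cells, both libraries added, reached 20, with 0.5 counts added. Named genes are the 9 genes, those most correlated with each on log2(CPM + 10) among genes with at least 100 CPM in a class, the extremes of each pathway list among genes with at least 100 UMIs, and genes named for their role. The 9 genes and the lists were chosen with earlier results of these data known. Gene positions come from GENCODE M21 (GRCm38), promoters from RefSeq (GRCm38.p6). The labels' protocol text speaks of conditional knockout mice, and whether its dissection steps apply here is unclear. Alternatives changed filters, doublet removal, clustering, integration, depth, scaling, free RNA and the way RPE cells were chosen.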

Additional observations from a re-analysis of the deposited data

How the results depend on the processing

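With 1 library per genotype, no replicate could be left out, and no test was weakened or gained. No paired analysis was possible because each genotype has 1 library. The median log2 ratio of the 9 genes in RPE-like cells, 0.18, was -0.0132 when the libraries were merged without integration, 0.0618 without the 1% of cells with the most UMIs, 0.0594 in the larger RPE-like cluster alone (an alternative added after seeing the data) and 0.676 when RPE cells were taken by a gate of 3 of 7 markers. This gate took 2469 and 978 cells, and 5 of the 9 genes were then at least 1.5-fold higher and 2 at least 1.5-fold lower in *Myrf* humdG/humdG, where 24.6% and 12.5% of 16997 genes were, while in the other alternatives none was higher and 1 was lower. The gate counts a single UMI as a marker, and the part of free RNA in its result was not tested. Over 13 alternatives, *Clu*, *Cst3*, *Cp*, *Mt1*, *Mt2* and *Mt3* kept the sign of their ratio in all, *Ptgds* and *Apoe* in 12 and *Serpinf1* in 10. Merged without integration, *Ptgds* and *Apoe* had log2 ratios of -0.01 each. The class with the highest level was the same in 17 or 18 of 18 gene and library pairs, or 16 without doublet removal. In *Myrf* humdG/humdG, *Ptgds* led in RPE-like and not melanocyte-like cells in 5 alternatives, and *Cp* led in neural crest and glia-like cells without doublet removal. Depth limits *Mt2*, *Cp* and *Serpinf1* in RPE-like cells, which rest on 26 to 122 UMIs.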
